A study of Mus musculus with 4 samples.

Results

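Malat1, Neat1, Gas5, Snhg1, Snhg6, Snhg8, Snhg12 and Dancr are 8 noncoding RNA genes that were taken by symbol from a count table of bone marrow mesenchymal stromal cells (MSCs). They are 8 of the 56980 genes in the table and 8 of the 52125 genes for which a length was found. The table holds 4 libraries, each made from 100 MSCs of 1 wild-type male C57BL/6J mouse, a strain long inbred in-house, at an age of 14 weeks, with no treatment. The sort took cells positive for CD51 and PDGFRa and negative for CD45, Ter119, CD31 and Sca1, and their polyA RNA was turned into cDNA by template switching from an oligo-dT primer. The labels call the mice young. All 4 libraries form 1 group, so levels were compared between RNAs within a mouse and between mice, and no condition was compared with another.

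Long noncoding RNAs act as RNA and are not translated into known proteins. Malat1 is retained in the nucleus and gathers in nuclear speckles, bodies rich in splicing factors, while Neat1 is the scaffold on which paraspeckles assemble and is made as a short polyadenylated and a long form. Gas5, the Snhg genes and Dancr are host genes of small nucleolar RNAs (snoRNAs): the snoRNAs are cut from their introns and guide chemical modification or cleavage of other RNAs, mostly ribosomal RNA. The spliced exons of several hosts are short-lived, since ribosomes load on them and nonsense-mediated decay removes them, and many hosts begin with the terminal oligopyrimidine tract known from ribosomal protein mRNAs.

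The libraries held between 22738604 and 43545349 counts on genes, and those of mice 1 and 3 were the deepest. Both genes of the selected sort antigens, Itgav (CD51) and Pdgfra, were above 1 TPM in every mouse, and Ptprc (CD45) and Pecam1 (CD31) had a median below 1 TPM. TPM is the count divided by the length of the merged exons, scaled so that all genes of a library sum to 1000000. Ly6a, the gene of the excluded antigen Sca1, was not uniformly absent, with 0.0472, 8.95, 0 and 11.6 TPM in mice 1 to 4. The 5 niche genes, Cxcl12 and Lepr among them, had a median above 1 TPM, and the 4 osteoblast markers summed to between 77792 and 168024 TPM. Of the 6 macrophage markers, Adgre1, Csf1r, C1qa and Lyz2 were at 0 in every mouse, and the list summed to between 0 and 15.99 TPM. The 6 neutrophil markers summed to between 6.84 and 39.7 TPM, and the 5 endothelial ones to between 0.0465 and 1.28 TPM, with Cdh5 and Kdr at 0. The 6 erythroid markers varied widely, with sums of 4980, 35.0, 1708 and 358 TPM in mice 1 to 4.

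All 8 RNAs had a median above 1 TPM, the cutoff that the study set for ligands and receptors in MSCs and that was used here for all genes. The same was true of 22.9% of all genes with a length and of 4.54% of the 13113 long noncoding genes among them. In every single mouse 6 of the 8 were above 1 TPM, where 15.4% of all genes were. The exceptions were Neat1 and Dancr, both in mouse 2. The 8 RNAs together took 0.651% ± 0.124 of the counts (SD, n = 4 mice), and all long noncoding genes took 1.30% ± 0.177.

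**Figure D1:**
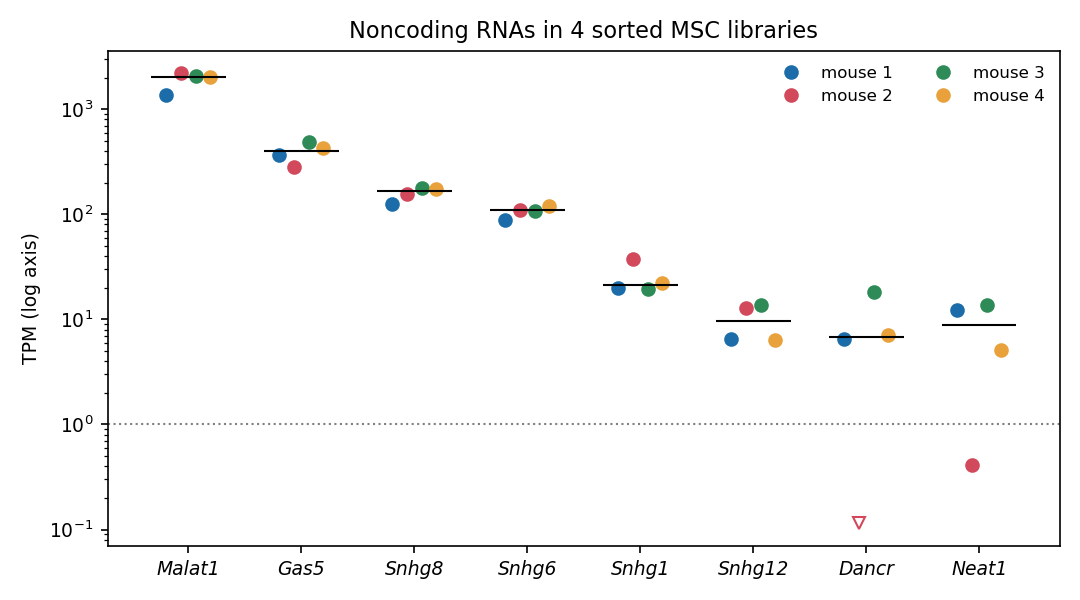
TPM of the 8 RNAs on a log axis, with 1 point per mouse, a bar at the median of the 4 mice and a dotted line at 1 TPM; the open triangle stands for the 0 counts of Dancr in mouse 2, drawn at the level of 3 counts. Malat1 lies between 1379 and 2202 TPM in all 4 mice, whereas the points of Neat1 and Dancr in mouse 2 are the only ones below the line.

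With merged exon lengths Malat1 was the most abundant of the 8 RNAs. The gene lies at chr19:5795690-5802672 on the minus strand of GRCm38 and its longest annotated transcript is a single exon of 6983 bases. It received 169446, 171021, 248360 and 145315 counts in mice 1, 2, 3 and 4, which correspond to 1379, 2202, 2058 and 2014 TPM. Mouse 1 was the lowest and the other 3 mice lay close together. In such bulk libraries fewer cells with an RNA and less of it per cell cannot be told apart. The mean was 1913 ± 365 TPM (SD, n = 4), the rank by median TPM was 43 among all genes and 2 among long noncoding genes, behind Gm10076. By count alone Malat1 ranked between 14 and 19 in a library. It held 43.1% ± 5.15 of all counts on long noncoding genes (SD, n = 4), with 36.4% in mouse 1 as the lowest and 48.7% in mouse 2 as the highest value.

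Because the cDNA was primed with oligo-dT, the longest run of A was read from the longest GENCODE M21 transcript of each gene. Malat1 has a run of 12 at positions 6674 to 6685 of 6983, which is 298 bases before its annotated end, and Neat1 has at most 7 in its 20771 bases. The stretches are shown 5′ to 3′ with the run in capitals.
Malat1: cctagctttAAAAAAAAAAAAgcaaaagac
Neat1: ggaaccattagAAAAAAAcgttaaatcatt
Snhg12: taaagccttAAAAAAAAAAAAgtcaggata
Snhg12 also has a run of 12, and the longest transcripts of the other 5 RNAs have no run longer than 5. Exons found only in shorter transcripts were not searched. A run of at least 12 occurs in the longest transcript of 5.88% of 52073 genes, and in 16.5% of the 9358 with a transcript of like length to Malat1. Whether priming inside a transcript added to any count was not tested.

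Neat1, a neighbour of Malat1 at chr19:5824708-5845478, was far lower and far less even. Mice 1 to 4 gave 4528, 95, 4920 and 1106 counts, or 12.4, 0.411, 13.7 and 5.15 TPM. Mice 1 and 3 were high, mouse 4 was intermediate and mouse 2 stood lowest, 33.3-fold below mouse 3. The mean was 7.92 ± 6.26 TPM (SD, n = 4) with the merged exons of 20771 bases. Malat1 exceeded Neat1 in 4 of 4 mice, by 8.20 ± 1.76 (SD) on the log2(TPM + 1) scale. An exact permutation test that flips the sign of each mouse's difference (two-sided) gave p = 0.125, adjusted p = 0.125 over 7 differences, and 0.125 is the smallest value that this test can give with 4 mice. The order of Neat1 across mice was near that of 2 other measures: the 2 deepest libraries had the highest Neat1, and the erythroid sum was above 1000 TPM in mice 1 and 3 and lowest in mouse 2. Their part in the spread of Neat1 was not tested.

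The 6 snoRNA hosts summed to 615, 603, 823 and 760 TPM in mice 1 to 4. Gas5, which hosts 9 different annotated snoRNAs and was named for its rise in growth-arrested cells, made up 55.5% ± 5.75 of the sum (SD, n = 4), with a range from 47.2% in mouse 2 to 59.7% in mouse 1. It lies at chr1:161034422-161038539 on the plus strand. Its counts were 24281, 11903, 31519 and 16610, or 367, 285, 485 and 427 TPM. Mouse 2 was lowest and mouse 3 highest, and the mean was 391 ± 85.8 TPM. Gas5 ranked 259 among all genes and 3 among long noncoding genes.

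Snhg8 and Snhg6 were the most even of the 8 RNAs. Snhg8, the host of Snora24 at chr3:123507552-123508404, had 126, 157, 180 and 176 TPM in mice 1 to 4, from 1884, 1493, 2648 and 1552 counts. Snhg6, the host of Snord87 at chr1:9941959-9944118, had 89.2, 111, 107 and 121 TPM, from 1799, 1414, 2112 and 1433 counts. In both genes mouse 1 was lowest, as it was for Malat1, and the other 3 mice lay closer together. Their means were 160 ± 24.8 and 107 ± 13.3 TPM (SD, n = 4).

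Snhg1 did the opposite of Gas5 in mouse 2. This host of 8 annotated snoRNAs at chr19:8723475-8726443 had 20.01, 37.5, 19.3 and 22.0 TPM in mice 1 to 4, from 1045, 1238, 992 and 676 counts. Mouse 2, where Gas5 was lowest, was clearly the highest, and the other 3 mice differed little. Snhg12, with 4 different annotated snoRNAs at chr4:132308623-132311024, split the mice in another way: mice 2 and 3 had 12.9 and 13.7 TPM, and mice 1 and 4 had 6.55 and 6.37 TPM. Its counts were 277, 345, 568 and 158. The hosts thus did not rise and fall together across the 4 mice.

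Dancr, the host of Snora26 at chr5:74093060-74095406, is known as a noncoding RNA that restrains differentiation of progenitor cells. It was detected in 3 of 4 mice. Mouse 3 had 747 counts or 18.4 TPM, mice 1 and 4 had 270 and 172 counts or 6.54 and 7.09 TPM, and mouse 2 had no count. At the depth of mouse 2 a count of 0 allows up to 0.115 TPM, taking 3 counts as the limit and counting error alone. The mean was 8.01 ± 7.65 TPM (SD, n = 4), and without mouse 3 it was 4.54 TPM.

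Mouse 2 lacked many moderately expressed genes besides these. It had 16109 genes with any count, against 18683, 18907 and 18802 in mice 1, 3 and 4. The library of mouse 4 was the shallower, with 22738604 counts against 26050230 in mouse 2. Of 7571 genes with at least 100 counts in each of mice 1, 3 and 4, 8.93% were more than 10 times lower in mouse 2 than in every other mouse, and Neat1 was among these 676. A further measure, a count of 0 in mouse 2, was met by 4.99% or 378 of the 7571 genes, Dancr included. The same 2 measures gave 392 and 200 genes for mouse 4, 158 and 45 for mouse 1, and 47 and 17 for mouse 3. Without mouse 2 the mean was 10.4 TPM for Neat1, 10.7 TPM for Dancr and 20.5 TPM for Snhg1.

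The start sites of the hosts are shown because the terminal oligopyrimidine tract is a known feature of this class. Each line gives 30 bases, 12 of them before the annotated start, 5′ to 3′ from the RefSeq promoters of GRCm38.p6, and capitals mark a C followed by at least 4 further C or T that begins within 5 bases of the start, read on the strand of the gene.
Gas5, start 1 at chr1:161034589-161034618: gggcgggcccgcgagctcgacagcccggag
Gas5, start 2 at chr1:161035154-161035183: cgccatctcagCCTTTCggagctgtgcggc
Snhg8 at chr3:123508319-123508348: ccgttcagaagtCTCTTTggctgcgatccg
Snhg12 at chr4:132308666-132308695: cgttctcagtCCTTTCTCgcttcatccgcg
Snhg1 at chr19:8723475-8723504: gttcttgtcggcctcatttttccttgttcg
Dancr at chr5:74093048-74093077: gtctcggggggggggggcagctccgcccct
Malat1 at chr19:5802655-5802684: cgggctctgcgtcaggcattcaggcagcga
Such a run was present at 3 of the 6 host entries, those of Snhg8, Snhg12 and the second Gas5 entry. It was found at 18.3% of all 32851 promoters and at 42.1% of the 76 with a ribosomal protein symbol. Entries of other noncoding snoRNA hosts had it in 5 of 14 cases, and those of coding genes with snoRNAs in their introns in 3 of 11. Neat1 and Snhg6 have no entry. Of the hosts with the run, Gas5, which has it at start 2 only, had 391 TPM, Snhg8 160 TPM and Snhg12 9.88 TPM. Snhg1 and Dancr, where no such run was found at the annotated start, had 24.7 and 8.01 TPM. Since the search found a run at only 42.1% of the ribosomal protein entries, missing it does not show that the tract is absent.

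Ordered by mean TPM with merged exon lengths, the 8 RNAs ran Malat1, Gas5, Snhg8, Snhg6, Snhg1, Snhg12, Dancr and Neat1. Each of the first 5 steps held in 4 of 4 mice and was larger than its SD. On the log2(TPM + 1) scale the step from Malat1 to Gas5 was 2.29 ± 0.46, that from Gas5 to Snhg8 1.27 ± 0.30, and that from Snhg8 to Snhg6 0.57 ± 0.12 (SD, n = 4). The steps from Snhg6 to Snhg1 and from Snhg1 to Snhg12 were 2.11 ± 0.41 and 1.26 ± 0.54. The last 3 RNAs could not be ordered. Snhg12 was above Dancr in 2 of 4 mice, by 0.82 ± 2.00, and Dancr differed from Neat1 by -0.13 ± 0.63.

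Gas5 was above each of the other 5 hosts in 4 of 4 mice. On the log2(TPM + 1) scale its lead was 1.27 ± 0.30 over Snhg8, 1.84 ± 0.36 over Snhg6, 3.95 ± 0.73 over Snhg1, 5.22 ± 0.67 over Snhg12 and 6.03 ± 1.496 over Dancr (SD, n = 4). The lead over Snhg1 was narrowest in mouse 2, at 2.89, and widest in mouse 3, at 4.58. The same exact permutation test gave p = 0.125, adjusted p = 0.125, for each, the smallest value it can give with 4 mice. Malat1 and Neat1 together exceeded the 6 hosts together by 1.45 ± 0.30 in 4 of 4 mice, with the same p from the same permutation test. This last difference depended on the length given to Gas5. It was -0.52 ± 0.37, with an exact permutation p = 0.25, when each gene took the length of its longest transcript without a retained intron.

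The length given to Gas5 and Snhg1 depends on annotated transcripts with retained introns. These are 20 of 25 for Gas5 and 14 of 18 for Snhg1, so that the merged exons of Gas5 cover 3760 bases and its longest transcript without a retained intron 665 bases. With the latter length Gas5 had 1616 ± 351 TPM (SD, n = 4), above Malat1 with 1401 ± 276 TPM. Snhg1 had 75.8 ± 27.0 TPM and kept its place behind Snhg8, at 189 ± 30.0 TPM, and Snhg6, at 110 ± 14.3 TPM. Neat1 also depended on the transcript assumed. Dividing its counts by the second longest transcript, of 3004 bases, in place of 20771 bases gave 54.7 ± 43.3 TPM. The counts do not tell which Neat1 form or which Gas5 transcript was present.

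**Figure D2:**
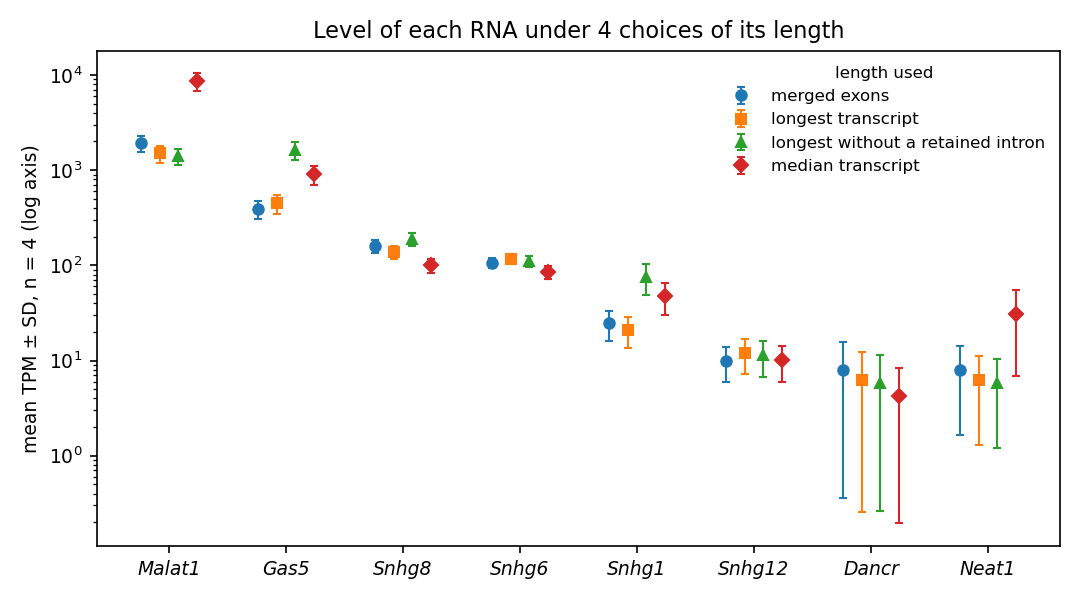
Mean TPM of each RNA on a log axis under 4 choices of gene length, with error bars of 1 SD over the 4 mice. Gas5 moves from 391 TPM with merged exons to 1616 TPM with its longest transcript without a retained intron and then lies above Malat1, while Snhg12 stays between 9.88 and 12.1 TPM.

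The coefficient of variation (CV) between mice, which takes in differences between animals, cells and amplification, was 12.4% for Snhg6, 15.5% for Snhg8, 19.1% for Malat1 and 21.9% for Gas5, and counting error alone would give between 0.237% and 2.46% for these 4. Snhg1 and Snhg12 were at 34.8% and 40.1%. Neat1 and Dancr were at 79.1% and 95.5%, against 4.04% and 5.79% from counting. Read against all genes in the same range of mean TPM, 6 of the 8 lay under the median CV, which is where 50% of genes lie by construction. Snhg12 and Snhg6 were low in their ranges, with 83.7% and 82.5% of genes showing a higher CV. Malat1 was slightly above the median of the 90 genes between 1000 and 10000 TPM, 17.4%, and Dancr above that of the 8584 genes between 1 and 10 TPM, 89.6%. In the range of Neat1 56.7% of genes showed a higher CV. These ranges match genes by TPM and not by count, and among genes with at least 10 counts in every library, where Dancr drops out, 4 of the other 7 lay under the median.

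**Figure D3:**
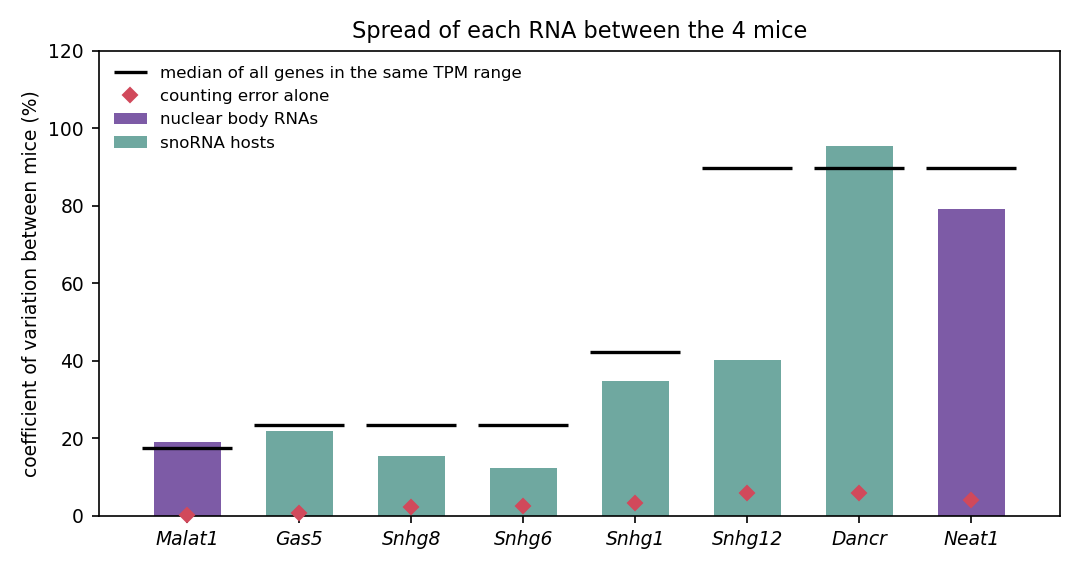
Coefficient of variation of TPM between the 4 mice for each RNA (bars, in percent), the median of all genes in the same range of mean TPM (black lines) and the value from counting error alone (diamonds). The bars of Malat1 and Dancr reach above their lines and the other 6 stay below.

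The snoRNAs inside the hosts were not seen in these libraries. GENCODE M21 places 26 snoRNA genes inside the 6 hosts on the same strand, 10 in Gas5, 8 in Snhg1, 5 in Snhg12 and 1 each in Snhg6, Snhg8 and Dancr, and these 26 entries stand for 24 different snoRNAs since Snord80 and Snora16a are each entered at 2 overlapping places. Of the entries, 24 are in the count table, and all 24 had 0 counts in all 4 libraries, while their 6 hosts had 105136 counts. Mature snoRNAs carry no poly(A) tail, and 25 of the 26 lie within annotated exons of their host, where the stated counting options assign no pair that overlaps several genes. Of all 1065 snoRNA genes listed, 10.2% had any count. The share was 4.61% of the 152 that exons of another gene overlap and 11.2% of the other 913. A count of 0 here is no measure of the amount of the mature snoRNAs. As examples chosen after the values were seen, 4 of these snoRNAs are shown 5′ to 3′ from the GENCODE transcripts, with box C (TGATGA) of Snord47, the last box D (CTGA) of Snord47 and Snord78 and the final ACA box of Snora24 and Snora26 in capitals.
Snord47 in Gas5 at chr1:161038082-161038158: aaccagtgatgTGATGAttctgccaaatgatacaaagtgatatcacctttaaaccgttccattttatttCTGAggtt
Snord78 in Gas5 at chr1:161036984-161037049: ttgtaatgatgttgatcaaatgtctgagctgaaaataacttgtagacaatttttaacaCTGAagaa
Snora24 in Snhg8 at chr3:123507937-123508066: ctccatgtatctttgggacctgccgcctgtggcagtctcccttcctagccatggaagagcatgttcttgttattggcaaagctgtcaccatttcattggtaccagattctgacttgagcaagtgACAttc
Snora26 in Dancr at chr5:74093530-74093650: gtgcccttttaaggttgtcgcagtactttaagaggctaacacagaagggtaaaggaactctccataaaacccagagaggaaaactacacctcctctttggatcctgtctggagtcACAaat
In Snord47 and Snord78 box D ends 4 bases before the end, no TGATGA was found in Snord78, and in both H/ACA snoRNAs the ACA ends 3 bases before it. Letters for both boxes were found in 75.5% of the 98 annotated Snord genes, and ACA within the last 8 bases in 95.2% of the 42 Snora genes.

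Parts of the 8 RNAs are shared with other genes, and pairs that fell there may be missing from their counts. Exons of other annotated genes cover between 1.85% of the merged exons of Neat1 and 20.9% of those of Snhg1, for the 4 hosts Gas5, Snhg1, Snhg8 and Snhg12 all of them snoRNAs. Snhg6 shares 11.1% of its exons with Mcmdc2 on the opposite strand, a gene that received 2, 0, 1 and 0 counts. Malat1 and Dancr each share a stretch with an unnamed opposite-strand gene, Gm37376 and Gm43416, and both of these were at 0.

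Other noncoding snoRNA hosts had medians from 0.00403 to 343 TPM, where those of Gas5 to Dancr ran from 6.82 to 397 TPM. Of 15 listed, 13 were matched to the table, all but Snhg4 and Snhg7, and 11 of the 13 had a median above 1 TPM. The exceptions were Snhg11 and Snhg14. The highest were Snhg18 with a median of 343 TPM, close to Gas5 at 397, then Epb41l4aos with 92.6, Snhg5 with 86.5 and Snhg9 with 83.4 TPM. In every mouse 7 of the 13 were above 1 TPM, against 5 of the 6 hosts Gas5 to Dancr. Zero counts as for Dancr also occurred here, in mice 2 and 4 for Snhg10 and in mouse 4 for Snhg11 and Snhg17, where Snhg10 and Snhg17 are named after their values were seen. All 12 listed coding genes that carry snoRNAs in their introns were above 1 TPM in every mouse, led by the chaperone Hspa8 with a median of 999 TPM, Tpt1 with 532, and the ribosomal protein genes Rps3 and Rpl7a with 487 and 485 TPM.

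**Figure D4:**
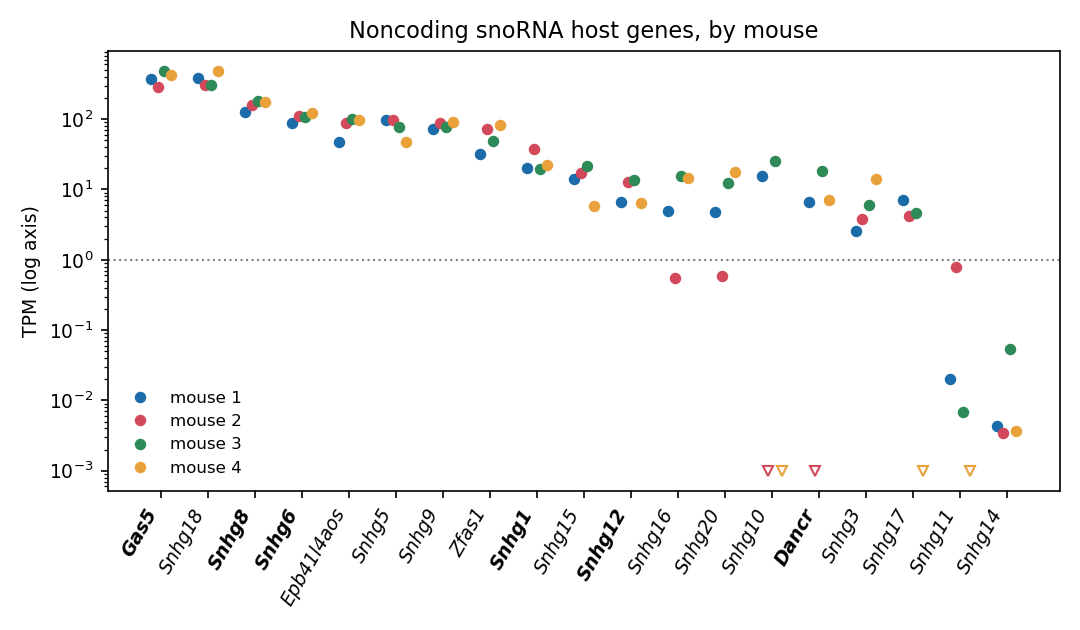
TPM of 19 noncoding snoRNA host genes by mouse on a log axis, ordered by median, with the 6 hosts from Gas5 to Dancr in bold, a dotted line at 1 TPM and open triangles at the lower edge for 0 counts. Gas5 and Snhg18 lead, and below a median of about 10 TPM single mice fall under the line in both sets.

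The mRNAs of proteins that act with these RNAs were detected. Those of all 10 speckle proteins listed were above 1 TPM in every mouse, the highest being the splicing factors Srsf7 with a median of 99.99, Srsf5 with 76.2 and Srsf3 with 43.4 TPM and the speckle scaffold Son with 58.6 TPM. All 10 mRNAs of paraspeckle proteins had a median above 1 TPM and 9 did so in every mouse, with Hnrnpk at 191, Nono at 45.2 and Sfpq at 25.9 TPM. Nono had 45.4, 44.9, 66.9 and 25.4 TPM and Sfpq 16.8, 32.4, 31.0 and 20.7 TPM in mice 1 to 4, so neither was lowest in mouse 2, where Neat1 was. The mRNAs of all 4 box C/D and all 4 box H/ACA core proteins of snoRNA particles had a median above 1 TPM, the highest being Nop56 with 56.3 and Nop10 with 280 TPM. Those of the 10 nonsense-mediated decay factors lay lower, 10 of 10 above 1 TPM by median and 7 of 10 in every mouse, with Upf3a at 14.6, Smg8 at 12.5 and Upf3b at 11.98 TPM.

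With merged exon lengths the lower 4 of the 8 RNAs had medians of 21.02 TPM for Snhg1, 9.73 for Snhg12, 8.77 for Neat1 and 6.82 for Dancr. Some other well-known long noncoding RNAs reached these levels. Of 18 listed, 14 had a length, and 6 of these had a median above 1 TPM, the highest being Mir22hg with 43.8, 2900097C17Rik with 26.5, Oip5os1 with 18.4 and Tug1 with 8.65 TPM. Meg3, Rian, Mirg, H19, Kcnq1ot1, Miat, Xist and Rpph1 did not. Outside all lists the 5 noncoding genes with the highest median were Gm10076 with 3858, Ndufb1 with 368, 2410006H16Rik with 336, 2700038G22Rik with 115 and AI506816 with 113 TPM. Ndufb1 carries the symbol of a respiratory chain subunit and is noncoding only by its type in GENCODE M21.

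Among genes with a median above 10 TPM, those with the pattern over the 4 mice nearest to Malat1 were Rell1, Sike1 and Gm7308, with root mean square differences of 0.016, 0.018 and 0.033 on the mouse-centred log2(TPM + 1) scale. For Gas5 they were Ndufa13, Casp6 and Mrpl51, at 0.029, 0.036 and 0.039. For Neat1 they were Ubap1, Tmem183a and Jpt2, at 0.090, 0.11 and 0.13. The distances are not comparable between the 3 RNAs, since the range over the mice was 3.38 for Neat1, 0.67 for Malat1 and 0.77 for Gas5. Ubap1 had 36.2, 2.66, 33.4 and 15.3 TPM in mice 1 to 4, low in mouse 2 as Neat1 was. Over 4 mice such likeness is a description of these libraries.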

How the data were processed

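In the authors' pipeline STAR 2.7.10 placed the pairs on GRCm39, with overlapping mates merged; they counted unique pairs on exons of Ensembl genes with featureCounts (Subread 1.6.5) without a strand option, and deposited raw counts for each mouse. TPM was derived from these counts (Python 3.11.15), with merged exon lengths of GENCODE M21 on GRCm38 joined by Ensembl identifier. That is not the build of the counts, so a gene whose exons changed has a TPM off by the ratio of its lengths. Genes with a length held between 96.1% and 98.2% of the counts. The TPM code was tested on simulated data. Differences within a mouse used log2(TPM + 1) and an exact permutation test over the signs of the 4 values (two-sided), adjusted over 7 by Benjamini-Hochberg. TMM and RLE factors came from edgeR 4.0.16.

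The 8 RNAs and the lists were chosen with earlier results of these data known. Named are the 8 RNAs, up to 4 genes with the highest median TPM and the genes below 1 TPM in each list, the 5 highest other noncoding genes, the 3 nearest patterns, and overlapping genes; exceptions are marked. The depth of 22738604 to 43545349 counts puts 3 counts between 0.0689 and 0.132 per 1000000 counts, for counting error only, since PCR copies are not independent molecules. Alternatives were other lengths, scalings, filters, pseudocounts and thresholds, and leaving out each mouse.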

Additional observations from a re-analysis of the deposited data

Results flagged for a closer look

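In each of 23 values over the 4 mice (the 8 RNAs, their 2 sums and 13 other noncoding snoRNA hosts), the gap between the lowest or highest mouse and its neighbour was compared with the whole range. In 3 of them 1 mouse stood apart by Dixon's 95% criterion for 4 samples. For independent, normally distributed values about 1.15 would do so. The 23 values are not independent, since the 2 sums repeat RNAs that are listed singly, so no conclusion is drawn from 3 against 1.15. Snhg1 was highest in mouse 2, at 37.5 TPM, with 22.0 TPM as the next value and a gap of 0.851 of the range. Snhg11 was also highest in mouse 2, at 0.802 TPM, with 0.0200 TPM as the next value. Snhg14 was highest in mouse 3, at 0.0532 TPM from 24 counts, with 0.00436 TPM as the next value. Neither Neat1 nor Dancr met the criterion, with gaps of 0.357 and 0.615 of the range.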

How the results depend on the processing

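Of 91 recomputed differences 90 kept their direction. The exception was the sum of Malat1 and Neat1 minus the sum of the hosts, 1.45 with merged exons and -0.52 with the longest transcript without a retained intron, an alternative added after seeing the data; the length of Gas5 changes there by construction. Each of the 7 differences was positive in 4 of 4 mice, and scalings, filters and pseudocounts keep the sign within a mouse. Only a change of length could therefore reverse a direction. The step from Malat1 to Gas5 was not among the 7. With the longest transcript without a retained intron Gas5 had 1616 and Malat1 1401 TPM. Other snoRNA hosts above 1 TPM numbered 11 by median and 7 in every mouse. Among the 8 RNAs, between 6 and 8 passed the level, and between 4 and 7 lay under the median CV. Leaving out each mouse in turn moved Malat1 minus Neat1 between 7.39 and 8.70, Gas5 minus Dancr between 5.33 and 6.50 and the difference of sums between 1.31 and 1.54. Levels moved with the length: Malat1 ranged from 1401 TPM to 8579 TPM with the median transcript length. Neat1 ranged from 5.76 TPM to 231 TPM with its shortest transcript. Without the 10 highest genes of each library Malat1 had 3054 and Gas5 619 TPM. Differences moved with the length too. Gas5 minus Snhg6 reached 3.85 with the longest transcript without a retained intron, and the difference of sums 2.89 with the median transcript length. Malat1 minus Neat1 fell to 5.84 with the second longest Neat1 transcript. With at least 10 counts in every library Dancr dropped out. No paired analysis was possible because no second group shares the replicate numbers; differences between RNAs were taken within each mouse. The permutation test used cannot give a p below 0.125 with 4 mice.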
